A study of Homo sapiens with 9 samples.

Results

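Notch receptors, Jagged ligands and genes known as Notch targets were followed in MDA-MB-231 cells in 3 conditions of extracellular fluid viscosity and *TRPV4* knockdown. Whether these targets answer to Notch in this line was not tested. The 9 genes were fixed by name, without a threshold on any value: the receptors *NOTCH1*, *NOTCH2* and *NOTCH3*, the ligands *JAG1* and *JAG2*, and the targets *HES1*, *HES4*, *HEY1* and *NRARP*. The choice was made with earlier results of these data known. These genes are 9 of 60664 genes listed, and all 9 were among the 18264 genes that passed the filter on low counts. MDA-MB-231 is a human breast cancer line of mesenchymal, triple-negative character. RNA was taken on day 6 from 3 groups of 3 samples: cells with a scramble control RNA (SC, genotype labelled WT) at 0.77 cP, the same SC cells at 8 cP, and cells with a stable short hairpin RNA against *TRPV4* (shTRPV4) at 8 cP. The 8 cP media held methylcellulose, an inert polymer that thickens the medium, whereas 0.77 cP is the viscosity of the medium without it. The hairpin was carried by a lentiviral vector with a puromycin resistance gene, and the effect of other hairpins on RNA is not analysed here. Poly(A) RNA was sequenced from strand-specific libraries, and read counts per gene were the deposited values.

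In the Notch pathway, a ligand on a neighbouring cell pulls on the receptor, which exposes it to cleavage by ADAM proteases and then by γ-secretase. The released intracellular domain enters the nucleus, binds the DNA-binding protein RBPJ with a Mastermind coactivator, and switches on a small set of targets. The best known targets are HES and HEY genes, which encode transcriptional repressors, and *NRARP*, which encodes a protein that promotes loss of the intracellular domain and so limits the signal. In breast cancer, Jagged ligands and Notch receptors are studied for their part in stem-like cells and metastasis.

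Counts summed to between 64571681 and 103518036 per sample, with the lowest total in replicate 2 of SC cells at 0.77 cP. Levels are given as CPM, counts scaled to 1000000 per TMM-adjusted library, and log2 fold changes come from edgeR's quasi-likelihood test over all 9 samples, with Benjamini-Hochberg adjustment across the 18264 genes. A gene is said to rise or fall where this adjusted p was below 0.05. The labels do not say whether the samples of a group came from separate cultures, so the p-values measure the spread between these samples, which may be technical. The hairpin's target was checked first. *TRPV4*, a calcium-permeable channel gene, was at 0.647, 0.466 and 0.264 CPM in SC cells and 0.0764, 0.0128 and 0.144 CPM in shTRPV4 cells at 8 cP, without overlap (log2 fold change -2.51, adjusted p = 0.00219 by edgeR). The gene was rare, so this check rests on 64, 45 and 24 counts in these SC cells and 7, 1 and 13 in shTRPV4 cells. As markers of the line, *VIM*, *CD44* and *EGFR* summed to between 1879 and 2058 CPM in every sample. Within that sum *VIM* fell with high viscosity (log2 fold change -0.17, edgeR adjusted p = 0.00950) and with the knockdown at 8 cP (-0.28, adjusted p = 0.000193), and *CD44* and *EGFR* passed the test when viscosity and hairpin differed together (0.19 and 0.25, adjusted p = 0.00201 and 0.00140). Of 5 luminal markers listed as low in such cells, *ESR1*, *PGR* and *CDH1* stayed at or below 0.133 CPM. The other members were present, *EPCAM* at 16.9 to 19.4 CPM and *GATA3* at 11.9 to 16.4 CPM, so the 5 summed to between 30.5 and 35.4 CPM, and *GATA3* rose with the knockdown (log2 fold change 0.30, edgeR adjusted p = 0.00265). Of 6 markers of leukocytes, endothelium and fibroblasts, *CDH5*, *PDGFRA* and *DCN* were at or under a floor of 3 counts in every group, and the summed level of the 6 was 4.15 to 6.31 CPM in SC cells at 0.77 cP, 2.67 to 3.18 CPM in SC cells at 8 cP and 2.05 to 2.57 CPM in shTRPV4 cells. Most of this sum was *PECAM1*, an endothelial adhesion gene that fell at 8 cP in SC cells (log2 fold change -0.86, edgeR adjusted p = 0.00159). The part of these marker shifts in the Notch results was not tested, and in bulk RNA fewer cells of a kind and less RNA per cell cannot be told apart.

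The first comparison asks how the genes differed between SC cells in viscous medium and SC cells in baseline medium. Only the viscous medium held methylcellulose, so viscosity and polymer differ together, and no sequenced group separates them. High viscosity therefore stands for both throughout, and the part of the polymer itself was not tested. At 8 cP the 4 targets and both ligands fell, and no receptor passed the test (0 of 3 by edgeR, 0 also at an unadjusted p below 0.05 and with DESeq2). *HES1* was lower by 5.41-fold, *HES4* by 2.34-fold, and *HEY1* and *NRARP* by 2.41-fold and 2.08-fold, whereas *JAG1* and *JAG2* were lower by 1.28-fold and 1.25-fold. Thus 6 of 9 genes fell and 0 rose, against a background of 19.3% of all tested genes called in either direction, 9.69% called lower and 9.57% called higher. The 9 genes were chosen with earlier results of these data known. Such shares, here and in the other comparisons, therefore describe the genes and do not test them as a set. The levels of 7 of the 9 genes did not overlap between the viscosities, against 38.4% of all tested genes. The median log2 fold change of the 9 was -0.44, the value of *NOTCH3*, a rare gene that was not called, beside -0.0065 over all genes tested. By role the medians were -1.25 for the 4 targets, -0.34 for both ligands and -0.072 for the 3 receptors.

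*HES1* (ENSG00000114315, chromosome 3 from 194136148 to 194138732, plus strand) encodes a basic helix-loop-helix repressor that also represses its own gene. Its level was 252, 282 and 262 CPM in SC cells at 0.77 cP, 50.1, 46.2 and 50.9 CPM in SC cells at 8 cP, and 40.0, 42.0 and 41.8 CPM in shTRPV4 cells at 8 cP. The 3 groups were fully separate, and nearly all of the range lay between 0.77 cP and 8 cP. With high viscosity the log2 fold change was -2.44 (SE 0.054, edgeR adjusted p = 1.31e-13), the 27th lowest of 18264 genes. Against SC cells at the same 8 cP, shTRPV4 cells were lower again by a much smaller amount (log2 fold change -0.25, SE 0.053, edgeR adjusted p = 0.00374). Set against SC cells at 0.77 cP, the level in shTRPV4 cells was lower by 6.43-fold (log2 fold change -2.69, edgeR adjusted p = 5.54e-14).

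*HES4* (ENSG00000188290, chromosome 1 from 998962 to 1000172, minus strand) encodes a close relative of HES1. It was at 52.8, 49.6 and 44.0 CPM in SC cells at 0.77 cP, 21.3, 21.8 and 19.4 CPM in SC cells at 8 cP, and 16.9, 18.7 and 19.7 CPM in shTRPV4 cells. Both groups at 8 cP lay well below 0.77 cP, and they overlapped each other. High viscosity gave a log2 fold change of -1.23 (SE 0.074, edgeR adjusted p = 2.18e-08). The further difference with the knockdown, -0.18 on the log2 scale, did not pass the test (edgeR adjusted p = 0.111), and shTRPV4 cells against SC cells at 0.77 cP gave -1.40 (edgeR adjusted p = 2.33e-09).

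*HEY1* (ENSG00000164683, on chromosome 8) encodes a repressor of the HEY branch and was much rarer. The counts were 142, 88 and 139 in SC cells at 0.77 cP, 48, 80 and 40 in SC cells at 8 cP, and 29, 18 and 27 in shTRPV4 cells. As CPM these are 1.51, 1.37 and 1.35, then 0.485, 0.828 and 0.441, then 0.317, 0.230 and 0.299. The 3 groups did not overlap, but replicate 2 of SC cells at 8 cP stood well above the rest of its group. Its log2 fold change was -1.27 with high viscosity (SE 0.23, edgeR adjusted p = 0.00245), and -2.31 in shTRPV4 cells against SC cells at 0.77 cP (edgeR adjusted p = 5.08e-06). With the knockdown at 8 cP the change was -1.04 (SE 0.27, edgeR adjusted p = 0.0135). This last call was lost without that replicate 2 of SC cells (log2 fold change -0.71, adjusted p = 0.0888) and without replicate 2 of shTRPV4 cells (-0.93, adjusted p = 0.0549).

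*NRARP* (ENSG00000198435, chromosome 9 from 137299631 to 137302271, minus strand, a gene of 1 exon) encodes the feedback inhibitor of the pathway. It was at 5.76, 5.00 and 4.79 CPM in SC cells at 0.77 cP, 2.49, 2.31 and 2.69 CPM in SC cells at 8 cP, and 3.27, 2.72 and 2.59 CPM in shTRPV4 cells. The groups at 8 cP overlapped each other and lay below every sample at 0.77 cP. With high viscosity the log2 fold change was -1.06 (SE 0.12, edgeR adjusted p = 3.32e-05), and with the knockdown at 8 cP it was 0.20 (SE 0.12, edgeR adjusted p = 0.278). In the shTRPV4 group relative to 0.77 cP it was -0.86 (edgeR adjusted p = 3.34e-05). Its exon overlaps ENSG00000288234, on the opposite strand, by 73 bases, and the strand setting of the counting is not given in the sources used here.

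**Figure D1:**
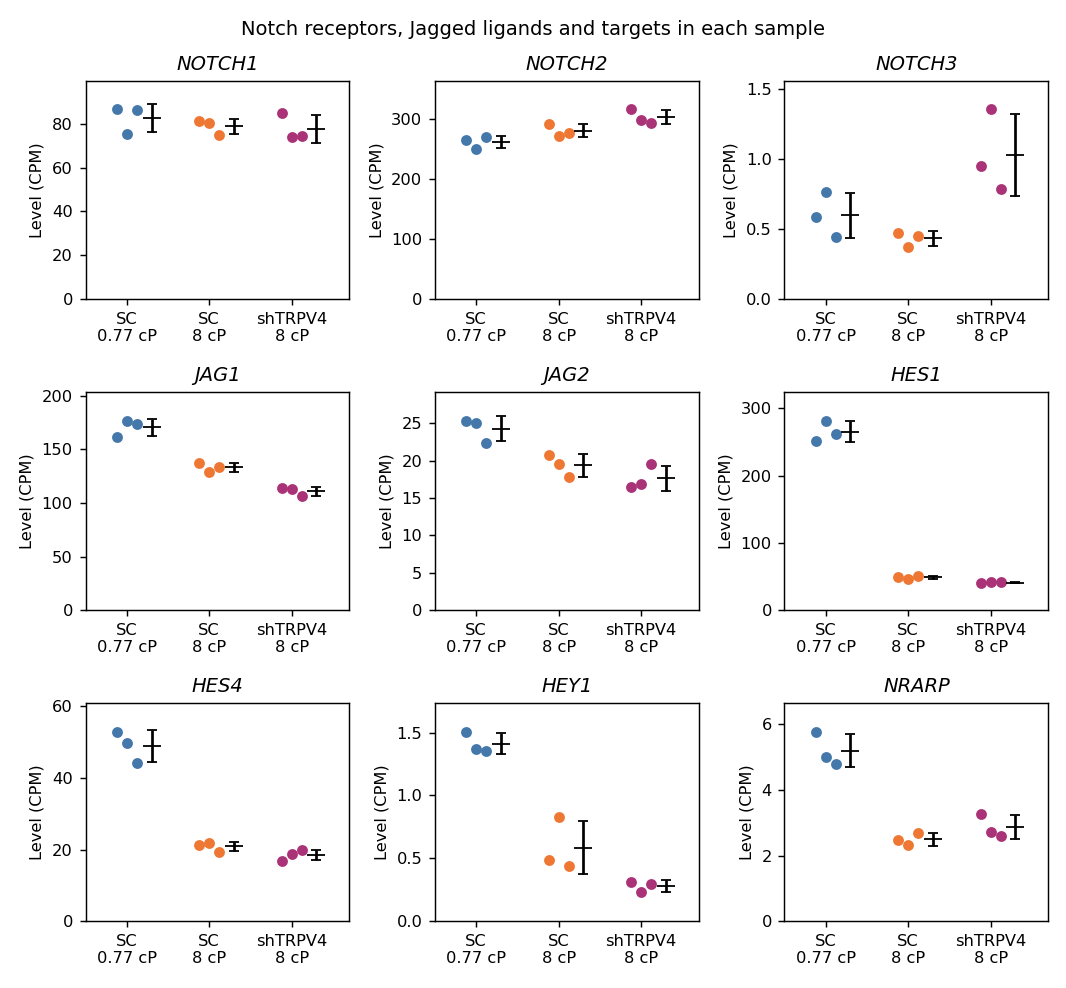
Level of each of the 9 genes in each sample, in CPM (vertical axes start at 0), by group; points are samples, and the dash and bar beside them are the mean and SD of 3 samples. *HES1* drops from 252 to 282 CPM in SC cells at 0.77 cP to 46.2 to 50.9 CPM in SC cells at 8 cP, *JAG1* steps down in each group, and *NOTCH3* is highest in shTRPV4 cells.

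Windows around the RefSeq start sites show how the letters of the RBPJ core lie in them. These windows (GRCh38.p14, 250 bases before to 50 after the start) were at hand for 8 of the 9 genes, all but *HEY1*. For *HES4*, *NOTCH2* and *JAG2*, on the minus strand, this start (1000097, 120069662 and 105168776) lies inside the gene span given here, which reaches 1000172, 120100779 and 105168824. Bases before that start are thus partly or wholly inside the span, and windows at the outermost starts were not searched. The core, TGGGAA on either strand, was found in the windows of *HES1* and *HES4* and of no other of the 8 genes, and it occurs in 24.0% of 35116 windows of the same length. *HES1* held 2 copies on the plus strand, beginning at -84 and -70, so 14 bases apart from first base to first base, and 3.80% of all windows hold 2 or more. *HES4* held 1, beginning at -76. The 7-base form GTGGGAA, which contains the core, stood once in each of the same pair of windows and in 6.25% of all. The N box CACNAG, a sequence to which HES proteins bind, matched 4 times in the *HES1* window, once in that of *NRARP* and 0 times in that of *HES4*. It also matched in the windows of the receptors *NOTCH1*, *NOTCH2* and *NOTCH3*, and in 38.0% of all windows on either strand. A match is a description of the letters only. *JAG1*, *JAG2* and *NRARP* fell with no core in their windows. The window of *HEYL* holds 2 cores, and its change with high viscosity did not pass the test (log2 fold change -0.49, edgeR adjusted p = 0.150). That of *HES5* also holds 2. *HES5* had 5, 5 and 15 counts in SC cells at 0.77 cP and 1, 2 and 0 in SC cells at 8 cP, too few to be tested. Whether the core has a part in these changes was not tested. The sequences shown are those of 2 targets with the core and of 1 without. They run 5′ to 3′ on the strand of the gene, and capitals mark the core.
*HES1*, 150 bases before the start, chr3:194135998-194136147, plus strand: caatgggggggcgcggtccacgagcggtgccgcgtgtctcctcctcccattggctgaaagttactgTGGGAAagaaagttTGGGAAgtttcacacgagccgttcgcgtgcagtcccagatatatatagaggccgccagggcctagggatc
*HES4*, 30 bases around the core, from -88 to -59, chr1:1000156-1000185, minus strand: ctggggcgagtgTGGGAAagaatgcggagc
*NRARP*, 150 bases before the start, chr9:137302272-137302421, minus strand: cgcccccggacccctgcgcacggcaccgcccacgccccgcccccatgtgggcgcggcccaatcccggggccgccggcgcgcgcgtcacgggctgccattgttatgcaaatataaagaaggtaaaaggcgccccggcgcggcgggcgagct

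**Figure D2:**
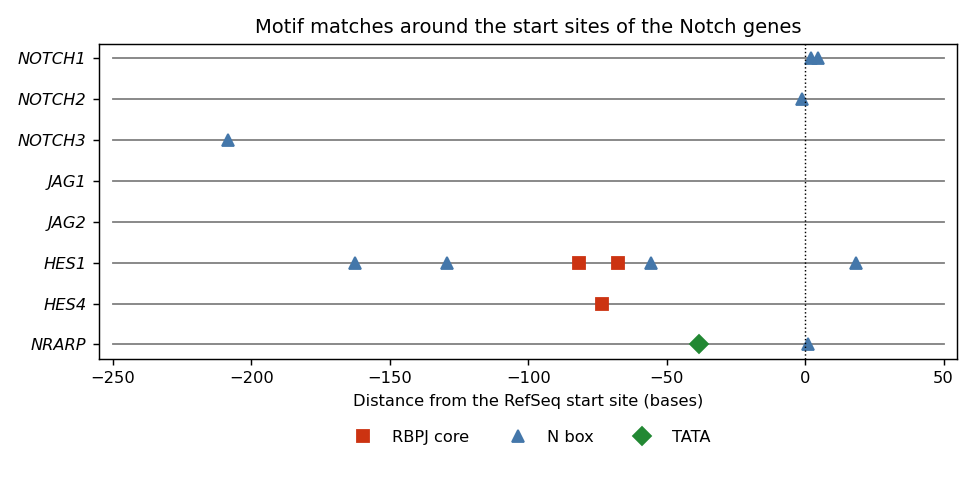
Matches of the RBPJ core TGGGAA, the N box CACNAG and the TATA motif TATAAA in the windows of 8 Notch genes; the horizontal axis is the distance in bases from the RefSeq start site (dotted line), and each symbol is a match on either strand, drawn at its centre. The RBPJ core appears only for *HES1*, with 2 matches, and *HES4*, with 1, and the TATA motif only for *NRARP*, starting at -41.

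*JAG1* (ENSG00000101384, chromosome 20 from 10637684 to 10673999, minus strand), the more abundant Jagged ligand in these cells, was at 162, 177 and 173 CPM in SC cells at 0.77 cP, 138, 129 and 133 CPM in SC cells at 8 cP, and 114, 113 and 106 CPM in shTRPV4 cells. The groups stepped down without overlap. The log2 fold change was -0.36 with high viscosity (SE 0.048, edgeR adjusted p = 0.000238), -0.27 with the knockdown at 8 cP (SE 0.048, edgeR adjusted p = 0.00117) and -0.62 in shTRPV4 cells against SC cells at 0.77 cP (edgeR adjusted p = 1.37e-07). Its exons overlap ENSG00000270792, on the opposite strand, by 306 bases. High viscosity and the knockdown are both read against the same SC samples at 8 cP, so these values are not independent.

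*JAG2* (ENSG00000184916, chromosome 14 from 105140982 to 105168824, minus strand), the second Jagged ligand, was at 25.3, 25.1 and 22.4 CPM in SC cells at 0.77 cP, 20.8, 19.5 and 17.8 CPM in SC cells at 8 cP, and 16.4, 16.8 and 19.5 CPM in shTRPV4 cells. The SC groups were separate, and the groups at 8 cP overlapped. With high viscosity the log2 fold change was -0.32 (SE 0.078, edgeR adjusted p = 0.0107), and the call was lost without replicate 1 of SC cells at 0.77 cP (-0.28, adjusted p = 0.0680), without its replicate 2 (-0.29, adjusted p = 0.0511) and without replicate 3 of SC cells at 8 cP (-0.26, adjusted p = 0.0705). With the knockdown at 8 cP it was -0.14 (edgeR adjusted p = 0.248), and in shTRPV4 cells against SC cells at 0.77 cP -0.46 (edgeR adjusted p = 0.000239). Its exons overlap ENSG00000257622, on the same strand, by 469 bases, and reads of that gene may not be told apart from its own. Per length of exon, *JAG1* made up 82.9% ± 1.37 (SD, n = 3) of the summed Jagged level in SC cells at 0.77 cP, 82.6% ± 1.04 in SC cells at 8 cP and 81.2% ± 2.06 in shTRPV4 cells, differences within the spread between samples.

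Among the receptors, *NOTCH1* (ENSG00000148400, chromosome 9 from 136494433 to 136546048, minus strand) was at 86.5, 75.5 and 86.4 CPM in SC cells at 0.77 cP, 81.5, 80.2 and 74.8 CPM in SC cells at 8 cP, and 85.1, 73.8 and 74.3 CPM in shTRPV4 cells. All 3 groups overlapped. The log2 fold change was -0.072 with high viscosity (95% interval -0.21 to 0.065, edgeR adjusted p = 0.475) and -0.019 with the knockdown at 8 cP (95% interval -0.16 to 0.12, edgeR adjusted p = 0.873). In the shTRPV4 group relative to 0.77 cP it was -0.091 (edgeR adjusted p = 0.282), and without replicate 1 of shTRPV4 cells it was -0.16 and passed the test (adjusted p = 0.0439).

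*NOTCH2* (ENSG00000134250, chromosome 1 from 119911553 to 120100779, minus strand), the most abundant receptor transcript here, was at 265, 250 and 269 CPM in SC cells at 0.77 cP, 292, 271 and 276 CPM in SC cells at 8 cP, and 315, 298 and 293 CPM in shTRPV4 cells. Each group lay above the one before it without overlap. The single steps did not pass the test, with log2 fold changes of 0.098 for high viscosity (SE 0.047, edgeR adjusted p = 0.162) and 0.11 for the knockdown at 8 cP (SE 0.047, edgeR adjusted p = 0.111). The whole range, from SC cells at 0.77 cP to shTRPV4 cells, was 0.21 and passed it (SE 0.047, edgeR adjusted p = 0.00208). *NOTCH2* has near-identical partial copies, the *NOTCH2NL* genes, between which reads could be split, so its counts carry that uncertainty. *NOTCH2NLC* was at 0.464 to 0.738 CPM over the 9 samples.

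*NOTCH3* (ENSG00000074181, chromosome 19 from 15159038 to 15200995, minus strand) was the rarest of the 3 receptors and the only gene of the 9 that rose with the knockdown at 8 cP. Its counts were 55, 49 and 46 in SC cells at 0.77 cP, 47, 36 and 41 in SC cells at 8 cP, and 87, 106 and 71 in shTRPV4 cells. As CPM these are 0.583, 0.764 and 0.447, then 0.475, 0.373 and 0.452, then 0.950, 1.35 and 0.785. Every shTRPV4 sample lay above every SC sample, and the SC groups overlapped. The log2 fold change with the knockdown was 1.24 (SE 0.26, edgeR adjusted p = 0.00340), while high viscosity gave -0.44 (SE 0.27, edgeR adjusted p = 0.281). Against SC cells at 0.77 cP the change in shTRPV4 cells was 0.80 (SE 0.26, edgeR adjusted p = 0.0192), a call that was lost without replicate 1 of SC cells at 0.77 cP (0.80, adjusted p = 0.0543), without its replicate 3 (0.63, adjusted p = 0.0796) and without replicate 2 of shTRPV4 cells (0.56, adjusted p = 0.116).

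Levels of different genes were set side by side per kilobase of merged exons, since a long transcript gathers more reads. In SC cells at 0.77 cP the order was *HES1* at 129 ± 7.42 CPM per kb (SD, n = 3), *HES4* at 43.7 ± 3.96, *JAG1* at 18.3 ± 0.849, *NOTCH2* at 15.6 ± 0.591, *NOTCH1* at 6.61 ± 0.505, *JAG2* at 3.79 ± 0.254, *NRARP* at 1.96 ± 0.192, *HEY1* at 0.257 ± 0.0153 and *NOTCH3* at 0.0636 ± 0.0169 CPM per kb, with gaps larger than the spread of each neighbour. In SC cells at 8 cP *NOTCH2*, at 16.7 ± 0.639 CPM per kb, lay above *JAG1*, at 14.3 ± 0.457, and *HES1* had come down to 23.8 ± 1.23. In shTRPV4 cells *NOTCH2*, at 18.0 ± 0.682 CPM per kb, and *HES4*, at 16.5 ± 1.29, were within the spread of each other. With the length of the MANE Select transcript in place of merged exons, a choice made after the data had been seen, *NOTCH2* in SC cells at 8 cP came out above *HES4*, at 24.5 and 23.6 CPM per kb, and above *HES1* in shTRPV4 cells, at 26.4 and 26.2. The same length put *HEY1* above *NOTCH3* in shTRPV4 cells, at 0.128 and 0.119 CPM per kb, where merged exons gave 0.0513 and 0.109.

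Of the summed level of the 4 Notch receptors per length, *NOTCH2* made up 69.8% ± 0.804 (SD, n = 3) in SC cells at 0.77 cP, 72.3% ± 0.922 in SC cells at 8 cP and 73.8% ± 0.802 in shTRPV4 cells. *NOTCH1* took most of the remainder, with 29.5% ± 0.887, 27.2% ± 0.881 and 25.4% ± 0.877 in the same order. *NOTCH3* and *NOTCH4* each made up at most 0.602% of the receptor level in any sample.

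**Figure D3:**
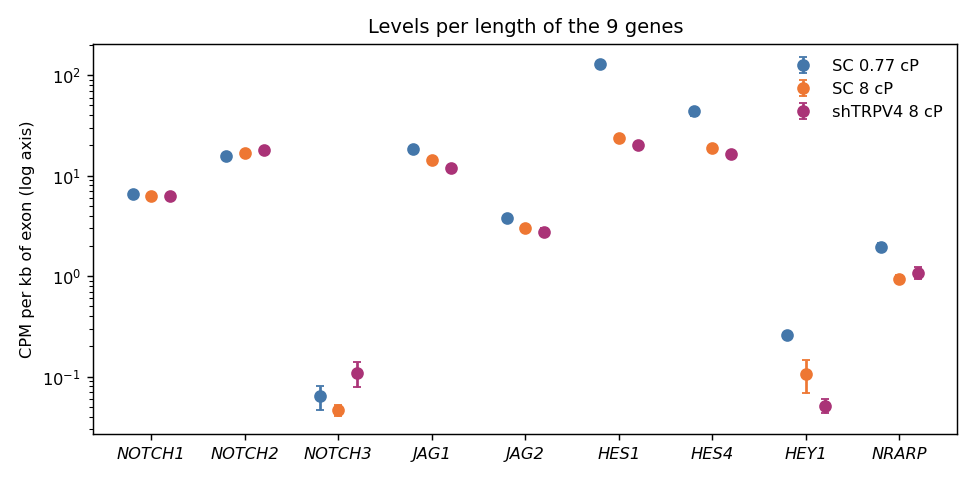
Mean level of the 9 genes per kilobase of merged exons, in CPM per kb on a log axis, with the SD of 3 samples as bars; colours are the 3 groups. *HES1* goes from 129 CPM per kb in SC cells at 0.77 cP to 23.8 in SC cells at 8 cP, close to *HES4* and *NOTCH2*, and *NOTCH3* and *HEY1* lie lowest.

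The second comparison sets shTRPV4 cells against SC cells, both at 8 cP, and asks how the hairpin changed the genes in viscous medium. *JAG1*, *HES1* and *HEY1* fell and *NOTCH3* rose, so 4 of 9 genes were called against a background of 20.0% of all tested genes (11.0% lower and 9.02% higher). The levels of 5 of the 9 did not overlap, against 36.3% of all tested genes. The median log2 fold change of the 9 was -0.14, the value of *JAG2*, which was not called, beside 0.00064 over all genes. Taken without sign, the median change over all genes was 0.148, so this median is of ordinary size. This comparison shares the SC samples at 8 cP with the first. No shTRPV4 samples at 0.77 cP are analysed here, so whether the knockdown alters the response to viscosity cannot be tested, and the hairpin's own effect at baseline viscosity cannot be told apart from it.

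The third comparison sets the shTRPV4 samples (8 cP) against the SC samples at baseline viscosity, so viscosity and hairpin differ together. Here 6 of the 9 genes fell, against 22.0% of all tested genes called lower, and *NOTCH2* and *NOTCH3* rose, against 20.4% called higher. In either direction 8 of 9 were called beside a background of 42.4%, and 8 of 9 did not overlap beside 50.6%. The 4 targets had a median log2 fold change of -1.86, the 2 ligands -0.54 and the 3 receptors 0.21. Only *NOTCH1* was neither called nor free of overlap. These samples also enter the other comparisons.

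**Figure D4:**
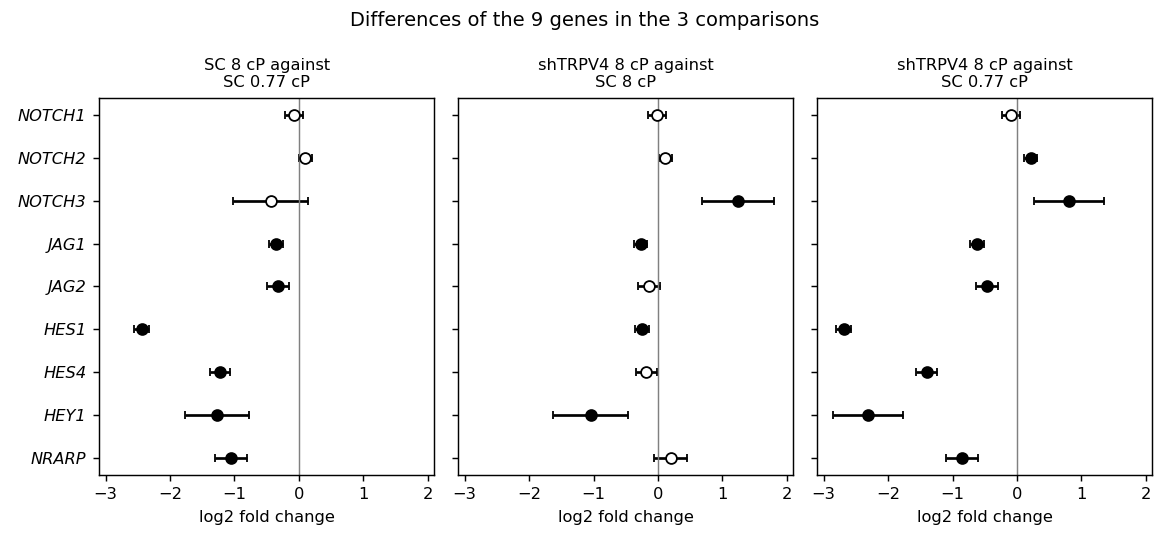
Log2 fold changes of the 9 genes (horizontal axes) in the 3 comparisons, with 95% intervals from the edgeR fit; filled points have an adjusted p below 0.05, open points do not. With high viscosity in SC cells the 4 targets lie between -2.44 and -1.06 and the ligands at -0.36 and -0.32. The 3 receptor intervals cross 0.

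The other genes of the Notch pathway were described from 7 lists by role, which hold 61 genes, of which 54 were tested; *DLL3*, *DLK1*, *DTX1*, *TLE4*, *HES3*, *HES5* and *HEY2* did not pass the filter. With high viscosity 2 of the 54 rose and 6 fell, or 14.8%, a share near the background of 19.3%, and their median log2 fold change was -0.024. The enzymes that prepare ligand and receptor were split, since *RFNG*, a Fringe glycosyltransferase (log2 fold change -0.22, edgeR adjusted p = 0.0154), and *MIB2*, a ubiquitin ligase for ligand endocytosis (-0.20, adjusted p = 0.0376), fell, while *NEURL1B*, a Neuralized ubiquitin ligase, rose (0.20, adjusted p = 0.0411). Of the proteases only *APH1B*, a γ-secretase subunit, passed (-0.34, adjusted p = 0.0136). Of the corepressors *TLE3*, *CIR1* and *TLE1* fell by 0.21, 0.25 and 0.15 on the log2 scale. By edgeR 0 of 8 genes of the nuclear complex passed the test (2 at an unadjusted p below 0.05, and 2 with DESeq2 after adjustment), and 0 of 4 of the other receptors and ligands (1 unadjusted, 1 with DESeq2). Receptor trafficking had 0 of 9 (2 unadjusted, 1 with DESeq2), and the other HES and HEY genes 0 of 4 (2 unadjusted, 0 with DESeq2). Each of the 7 genes named here lost its call in 3 to 7 of the 9 leave-one-out fits, among them without replicate 1 of SC cells at 0.77 cP (adjusted p from 0.0674 to 0.207) and without replicate 3 of SC cells at 8 cP (0.0780 to 0.240). The count of 8 rested on single libraries: it was 0 without replicate 1 of SC cells at 0.77 cP (9 of 54 at an unadjusted p below 0.05, and 1409 of 18596 over all genes), 1 without replicate 3 of SC cells at 8 cP, 2 without replicate 2 of SC cells at 0.77 cP, 4 and 5 without replicates 1 and 2 of SC cells at 8 cP, 5 without replicate 2 of shTRPV4 cells and 15 without its replicate 1 (4349 of 18744 over all genes). With DESeq2 it was 14, beside 4006 of 15251 over all genes.

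With the knockdown at 8 cP, 4 of the 54 rose and 7 fell, or 20.4%, close to the background of 20.0%. *NEURL1*, a second Neuralized ligase, was at 0.667, 0.766 and 0.606 CPM in SC cells at 8 cP and 2.01, 1.90 and 1.94 CPM in shTRPV4 cells. These groups were far apart (log2 fold change 1.52, SE 0.18, edgeR adjusted p = 2.88e-05), whereas its relative *NEURL1B* fell (-0.42, adjusted p = 0.000259). *MAML3*, a Mastermind coactivator of the nuclear complex, was at 6.12, 5.35 and 5.82 CPM in SC cells at 8 cP and 2.60, 2.20 and 2.18 CPM in shTRPV4 cells. It fell by 1.31 on the log2 scale without overlap (SE 0.10, edgeR adjusted p = 6.14e-07) and overlaps exons of *MGST2*, on the opposite strand, by 252 bases. *KAT2B*, an acetyltransferase of the same complex, fell less (-0.22, edgeR adjusted p = 0.00514). The Groucho-type corepressors were split, as *TLE1* rose (0.34, edgeR adjusted p = 0.000181) and *TLE3* fell (-0.27, adjusted p = 0.00243), and the histone deacetylase gene *HDAC1* fell by 0.22. *FURIN*, the convertase that matures the receptor, fell by 0.19, the Deltex gene *DTX3* rose by 0.30, and *FBXW7*, which marks the intracellular domain for degradation, fell by 0.21 on the log2 scale. These last 3 calls were lost in 2, 3 and 4 of the 9 leave-one-out fits, for *FURIN* without replicate 3 of SC cells and without replicate 2 of shTRPV4 cells (adjusted p = 0.0565 and 0.0768).

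When viscosity and hairpin differed together, 6 of the 54 rose and 14 fell, or 37.0%, beside a background of 42.4%. *NEURL1* rose by 1.89 and *MAML3* fell by 1.58 on the log2 scale, both larger than any other gene named from the lists. *RBPJ*, the DNA-binding partner of every Notch receptor, rose slightly, from 162, 166 and 169 CPM in SC cells at 0.77 cP to 204, 189 and 177 CPM in shTRPV4 cells (log2 fold change 0.20, edgeR adjusted p = 0.00583). The groups did not overlap. *HEYL*, a HEY family target, was rare and fell from 0.859, 1.04 and 0.797 CPM to 0.458, 0.422 and 0.641 CPM (-0.81, SE 0.24, edgeR adjusted p = 0.0122), and *HES2* fell by 0.43 on the log2 scale. The γ-secretase subunit gene *APH1A* fell by 0.26, *MIB2* by 0.37, *RFNG* by 0.23, *TLE3* by 0.48 and *HDAC1* by 0.23 on the log2 scale. *FURIN*, *ADAM17*, *FBXW7* and *KAT2B* fell by 0.13 to 0.21, and the kinase gene *AAK1* and the corepressor gene *NCOR1* both rose by 0.21. The call of *ADAM17* was lost in all 9 leave-one-out fits and with DESeq2, those of *FURIN*, *AAK1* and *FBXW7* in 3, 3 and 4 of the 9 fits, and that of *HEYL* without replicate 2 of SC cells at 0.77 cP (adjusted p = 0.0523).

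**Figure D5:**
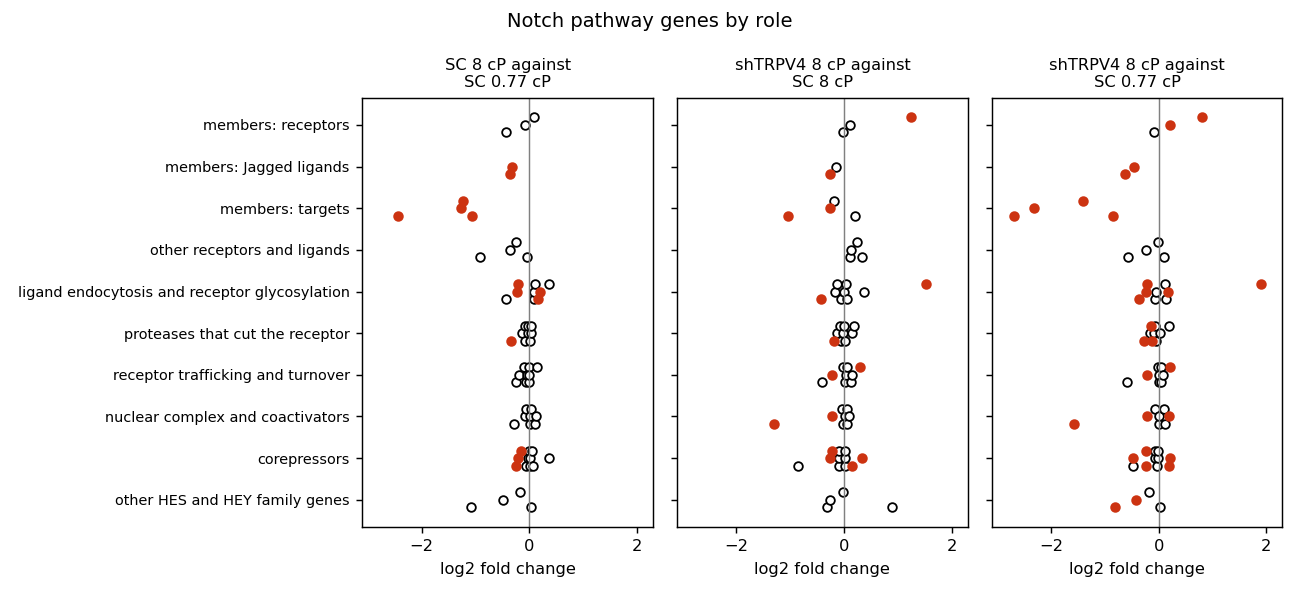
Log2 fold changes (horizontal axes) of the 9 genes and of the 54 other tested pathway genes by role, in the 3 comparisons; each point is a gene, red where the edgeR adjusted p was below 0.05 and open where not. With high viscosity *HES1* lies lowest, at -2.44, while the called genes outside the 9 lie between -0.34 and 0.20; with the knockdown *NEURL1* at 1.52 and *MAML3* at -1.31 stand out.

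Across the 9 samples the 4 targets and 2 ligands varied together. Pearson's r of log2 CPM was 0.99 between *HES1* and *HES4*, 0.93 between *HES1* and *NRARP*, 0.93 between *JAG1* and *HES1* and 0.84 between *JAG1* and *JAG2*. The lowest value among these genes was 0.74, between *JAG2* and *NRARP*. *NOTCH2* ran the other way, with r = -0.84 to *JAG1* and -0.79 to *HES1*. Its values to these targets and ligands ranged from -0.87, to *HEY1*, to -0.58, to *NRARP*. These values describe 9 samples that fall into 3 groups and share libraries and scaling, so they restate the group differences. Among the 13108 genes that averaged 1 CPM or more, the patterns most like that of *HES1* were those of *ZFP36* (r = 0.998) and *TRIB1* (0.996), and the most like *HES4* were *BHLHE40* (0.995) and *MYC* (0.994). For *NRARP* they were ENSG00000275993 (0.985) and *HPS4* (0.984), for *HEY1* *TNFRSF10B* (0.982) and *FAM131A* (0.978), for *JAG1* *ZNF274* (0.984) and *COPA* (0.983), and for *JAG2* *WBP2* (0.990) and *ZNF846* (0.989). Among the receptors they were *TRIM56* (0.986) and *SYNJ2* (0.983) with *NOTCH2*, and *MIA2* (0.954) and *INHBA* (0.952) with *NOTCH3*.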

How the data were processed

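RNA from 9 samples of MDA-MB-231 cells was analysed, 3 in each of 3 groups taken from the sample titles and characteristics. As the authors describe, reads were mapped to GRCh38.p13 with HISAT2 2.2.1 and assigned by HTSeq 0.13.5 to the exons of Ensembl 104 genes, and the deposited values are raw counts per gene, without normalization. The authors' own tests used DESeq2. The libraries hold no molecular identifiers, so a floor of 3 counts covers counting error only. The spread between samples gave a common biological coefficient of variation of 0.0633. Of 60664 gene IDs, 60463 were matched to GENCODE 44 for symbols, positions and exon lengths.

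Counts were analysed in R 4.3.3 with edgeR 4.0.16 (TMM, filterByExpr, quasi-likelihood test, 1 coefficient per group) and limma 3.58.1. Alternatives were DESeq2 1.42.0, other scalings and filters, only the 6 samples compared, a replicate block and leaving out each of the 9 samples. The procedure was tested on simulated data. The 9 genes, the pathway lists and the tests were chosen with earlier results of these data known. Named pathway genes are, per list and comparison, up to 3 with the smallest adjusted p among those called, and for each of the 9 genes the 2 most correlated genes, except that those of *NOTCH1* are not reported here.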

Additional observations from a re-analysis of the deposited data

How the results depend on the processing

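For the 9 genes, all 189 values under the alternatives other than leaving out a sample kept their direction and their side of the threshold. Of 243 values with a sample left out, 231 did, 8 lost and 1 gained the call, and 3 turned direction: *NOTCH1* with the knockdown at 8 cP, which was not called, ranged from -0.0904 to 0.016 on the log2 scale, with 0.0046, 0.016 and 0.012 in the 3 that turned. The count of the 9 called with a sample left out ranged from 5 to 6 with high viscosity, 3 to 4 with the knockdown and 7 to 9 for both. With high viscosity the 8 other pathway genes called became 14 with DESeq2's Wald test, and 0 to 15 with a sample left out, by edgeR in both limits (0 without replicate 1 of SC cells at 0.77 cP, 9 at an unadjusted p below 0.05). The corresponding range was 8 to 12 with the knockdown (11 with all samples) and 16 to 19 for both (20 with all samples). Over all tested genes, the 3518 called with high viscosity became 1409 to 4349, the 3649 with the knockdown 2179 to 3836, and the 7752 for both 6318 to 7705. The counts with high viscosity fell by more than 1.5 times without replicate 1 (1409) or 2 (1927) of SC cells at 0.77 cP or replicate 3 of SC cells at 8 cP (1418), and those with the knockdown without replicate 1 (2361) or 2 (2179) of SC cells at 8 cP. These fits have fewer samples, and a lone pair in a group is assumed to vary like the others. For the named pathway genes, 225 of 231 values under the other alternatives and 239 of 297 with a sample left out kept the call. Samples with the same replicate number did not deviate together (correlations from -0.0546 to 0.0904 over 9 pairs, against -0.106 to 0.115 over 18 pairs with different numbers). With the replicate number as a block, 6, 4 and 8 of the 9 genes, 9, 12 and 20 other pathway genes and 3475, 3607 and 7731 of all genes were called, in the order of the comparisons. Depth limits *HEY1* and *NOTCH3*, with at most 142 and 106 counts in a sample.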
